A study of Homo sapiens with 12 samples.

Results

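Mitochondrial ribosomal protein genes were taken as the entries of the count table whose symbol is MRPL or MRPS followed by a number and at most 1 letter. There were 76 such genes among 23398 entries, 47 named for the large subunit (MRPL) and 29 for the small subunit (MRPS), and all 76 passed the filter on low counts. They were read in human brain microvascular endothelial cells (HBMEC), a commercially supplied culture of the cells that line brain capillaries, 48 hours after siRNA transfection. The study asked how loss of the glucose transporter Glut1 (gene SLC2A1) and exposure to high glucose alter the transcriptome of these cells. The groups were cells with non-silencing siRNA in control glucose (n = 3), cells with siRNA against Glut1 (siGlut1) in control glucose (n = 3), non-silencing cells in high glucose (n = 2) and siGlut1 cells in high glucose (n = 3). The sources used here do not give the glucose concentrations. All groups were transfected, so no group shows untreated cells, and the knockdown rests on siRNA in 1 type of cultured cell. A column labelled as a further non-silencing replicate in high glucose was left out, because it equalled the mean of the other replicates of its group in 23397 of 23398 entries and in all 76 of these genes. Whether replicates are separate cultures is not in the labels, and a p-value then reflects only how far these libraries scatter, which may be technical.

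Mitochondrial ribosomes translate the few proteins encoded by mitochondrial DNA, all of them subunits of the respiratory chain and ATP synthase. Their RNAs come from the mitochondrial genome, but their proteins are encoded in the nucleus, made in the cytosol and imported. Some of these proteins have bacterial relatives and others are found only in mitochondria, and inherited defects in several of them cause disease of tissues with high energy demand.

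Upstream regions of nuclear genes for mitochondrial proteins are known for sites of NRF1, ETS-family factors (GABP) and YY1. The promoters of genes that the results below turn on are therefore shown first, where a RefSeq promoter was matched. None was matched for MRPL23 and MRPS28, which also passed the threshold below. Each runs from 250 bases before to 50 bases after the RefSeq start (GRCh38.p14), 5′ to 3′ on the gene's strand. Capitals mark matches on either strand to the letters AAGATGGC (YY1), CCGGAAG (ETS) or GCGCA and GCGC with any 1 base between them (NRF1). MRPS18B (chr6:30617590-30617889, plus strand) holds the YY1 letters just after its start, and MRPS18A (chr6:43687742-43688041, minus strand) and MRPS10 (chr6:42217812-42218111, minus strand) hold both the ETS and the YY1 letters. MRPS9 (chr2:105037819-105038118, plus strand) holds the NRF1 letters on the opposite strand. MRPL11 (chr11:66438799-66439098, minus strand) and MRPS11 (chr15:88467458-88467757, plus strand) hold none of the 3 in this window.
MRPS18B: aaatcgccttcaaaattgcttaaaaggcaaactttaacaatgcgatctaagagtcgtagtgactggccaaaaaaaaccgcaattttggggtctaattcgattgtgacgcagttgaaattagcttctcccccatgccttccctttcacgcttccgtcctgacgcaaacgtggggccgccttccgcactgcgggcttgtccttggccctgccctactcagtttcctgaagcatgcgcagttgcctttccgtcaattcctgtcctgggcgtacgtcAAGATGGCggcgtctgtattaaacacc
MRPS18A: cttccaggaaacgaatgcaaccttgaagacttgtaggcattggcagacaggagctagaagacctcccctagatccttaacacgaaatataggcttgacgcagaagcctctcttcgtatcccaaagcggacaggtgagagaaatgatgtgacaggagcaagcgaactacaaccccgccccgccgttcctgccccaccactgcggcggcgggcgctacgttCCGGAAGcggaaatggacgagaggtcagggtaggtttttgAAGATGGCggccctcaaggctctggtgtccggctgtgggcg
MRPS10: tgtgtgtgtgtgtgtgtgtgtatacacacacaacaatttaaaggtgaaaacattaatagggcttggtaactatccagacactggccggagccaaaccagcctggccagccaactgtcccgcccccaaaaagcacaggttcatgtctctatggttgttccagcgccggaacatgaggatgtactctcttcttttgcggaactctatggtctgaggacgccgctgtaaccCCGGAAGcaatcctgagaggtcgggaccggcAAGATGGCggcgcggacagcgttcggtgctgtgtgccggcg
MRPS9: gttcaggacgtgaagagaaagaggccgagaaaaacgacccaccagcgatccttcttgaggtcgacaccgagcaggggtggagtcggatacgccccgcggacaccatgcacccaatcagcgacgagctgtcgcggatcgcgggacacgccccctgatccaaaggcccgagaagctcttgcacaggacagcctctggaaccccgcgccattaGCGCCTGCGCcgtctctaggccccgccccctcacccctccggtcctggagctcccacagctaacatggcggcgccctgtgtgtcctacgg
MRPL11: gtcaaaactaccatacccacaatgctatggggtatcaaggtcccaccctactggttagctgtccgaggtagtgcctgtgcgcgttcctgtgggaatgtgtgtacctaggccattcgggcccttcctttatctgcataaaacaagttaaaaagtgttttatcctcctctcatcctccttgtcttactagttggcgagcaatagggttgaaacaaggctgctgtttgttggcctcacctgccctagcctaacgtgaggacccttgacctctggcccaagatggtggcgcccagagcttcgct
MRPS11: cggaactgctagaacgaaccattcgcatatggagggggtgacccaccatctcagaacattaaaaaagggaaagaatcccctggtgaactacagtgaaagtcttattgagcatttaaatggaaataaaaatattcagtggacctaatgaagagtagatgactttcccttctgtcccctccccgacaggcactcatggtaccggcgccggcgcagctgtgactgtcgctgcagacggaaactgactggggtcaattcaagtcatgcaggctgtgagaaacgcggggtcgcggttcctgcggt

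Among the 68 of 76 genes matched to a RefSeq promoter, the YY1 letters stood in 20 (29.4%), against 5.09% of the promoters of the 10878 other tested genes and 3.03% of all 27305 promoters. Of their 21 YY1 matches, 15 lay at or after the start, and all 15 of these were on the gene's strand, as in MRPS18B, MRPS18A and MRPS10. The ETS letters stood in 28 (41.2%), against 18.5% of the other tested genes and 10.7% of all promoters. The NRF1 letters stood in 7 (10.3%), against 11.5% and 6.28%. Promoters of the 68 genes had a median GC content of 60.2%, and those of the other tested genes 65.3%. The ETS letters end in the AAG with which the YY1 letters begin, so those matches can overlap, and a match describes the sequence only. Another feature was a neighbour facing away from the same promoter. Another tested gene started within 1000 bases on the opposite strand for 17 of the 68 genes (25%), against 13% of the other tested genes. Neighbours that were not tested were not counted, and an overlap of the starts by up to 50 bases was allowed. MRPL46 and MRPS11, members of the large and the small subunit, are such a pair, with starts 320 bases apart.

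The libraries held 40135082 to 90536476 counts. SLC2A1, the gene targeted by the siRNA, stood at 25.7, 23.7 and 22.2 CPM (counts scaled to library size) in the non-silencing libraries in control glucose and at 8.56, 9.05 and 6.26 CPM in the siGlut1 libraries. In high glucose it stood at 21.2 and 20.7 CPM without and at 7.09, 7.19 and 6.38 CPM with siGlut1, so the groups did not overlap in either medium. Its log2 fold change averaged over both media was -1.59 ± 0.0951 (SE; adjusted p = 2.92e-05, edgeR's quasi-likelihood test). Every adjusted p below is from this test, by the Benjamini-Hochberg method over all 14324 genes tested, unless another tool is named. All 14 endothelial markers were detected, with summed levels of 7720 to 11100 CPM (non-silencing, control glucose), 8910 to 10900 CPM (siGlut1, control glucose), 8830 to 8980 CPM (non-silencing, high glucose) and 9190 to 10700 CPM (siGlut1, high glucose). Of 20 markers of other cell types 12 passed the low-count filter, and AQP4 (astrocytes) and CDH1 (epithelium) were at 0 counts in all 11 libraries. The sums over these 20 were 1920 to 2270 CPM and 1630 to 1720 CPM in control glucose without and with siGlut1, and 2470 to 2540 CPM and 1820 to 2170 CPM in high glucose. RGS5, a gene best known from pericytes, made up most of these sums. Of the 14 endothelial genes 4 passed, against 14.4% of all genes, and all 4 were higher, against 7.93%: FLT1, ENG, TEK and KDR rose with siGlut1 over both media (log2 fold changes 0.56, 0.31, 0.29 and 0.31; adjusted p = 0.00135, 0.00954, 0.0144 and 0.0163). The median of the 14 was 0.086 and 4 were below 0, VWF at -0.16, EGFL7 at -0.09, CLDN5 at -0.051 and ESAM at -0.037 (adjusted p = 0.732, 0.703, 0.9 and 0.684). RGS5 fell by 0.35 ± 0.0605 (SE; adjusted p = 0.00394). The TEK call was lost without non-silencing high-glucose library 3, and the KDR call without either non-silencing high-glucose library (adjusted p up to 0.0826 and 0.081). The part of these shifts in the results below was not tested, and in bulk RNA fewer cells of a type and less RNA per cell cannot be told apart.

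In non-silencing cells in control glucose, the mitochondrial ribosomal protein genes were abundant. On the deposited RPKM scale (reads scaled to library size and gene length), which allows levels of different genes to be compared, their median was 28.6, against 6.39 for all genes tested. The level was above the median of all tested genes for 75 of the 76 and above the upper quartile for 62, and the median gene stood at percentile 83.3. All but 3 (73 of 76) were above 10 RPKM and 10 were above 50. The genes are short: their coding length as deposited had a median of 1237.5 bases (518 to 7827), against 3031 for all genes tested. Where lengths matter, comparison was therefore made with the 5764 other tested genes of 699.5 to 2707.5 bases, the span that holds the middle 80% of these genes (60 of 76).

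The highest level belonged to MRPL51, a large-subunit protein found only in mitochondria, at 129 ± 9.01 RPKM (SD, n = 3). It stood at 122, 127 and 139 RPKM in the non-silencing and 112, 114 and 126 RPKM in the siGlut1 libraries in control glucose, and at 132 and 127 and then 102, 113 and 114 RPKM in high glucose. These values exceeded those of every other gene of the set in every library. MRPL20 (75.1 ± 8.60), MRPS15 (72.5 ± 6.92) and MRPL37 (67.5 ± 2.10 RPKM; SD, n = 3) followed, and these neighbours in the order lay within or close to each other's spread. MRPL3, a protein near the peptidyl transferase centre, was at 45.4 ± 6.66 RPKM and MRPS7, a protein of the small-subunit head, at 47.8 ± 7.28 RPKM (SD, n = 3). These values also differ by less than their spread. At the low end were MRPS31 (10.4 ± 0.810), MRPL19 (9.45 ± 1.58), MRPS25 (7.36 ± 0.531) and MRPS24 (6.16 ± 1.61 RPKM; SD, n = 3), the last of which shares a readthrough transcript with its neighbour URGCP. In the plot of levels, the order is shown for all 76 genes.

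**Figure D1:**
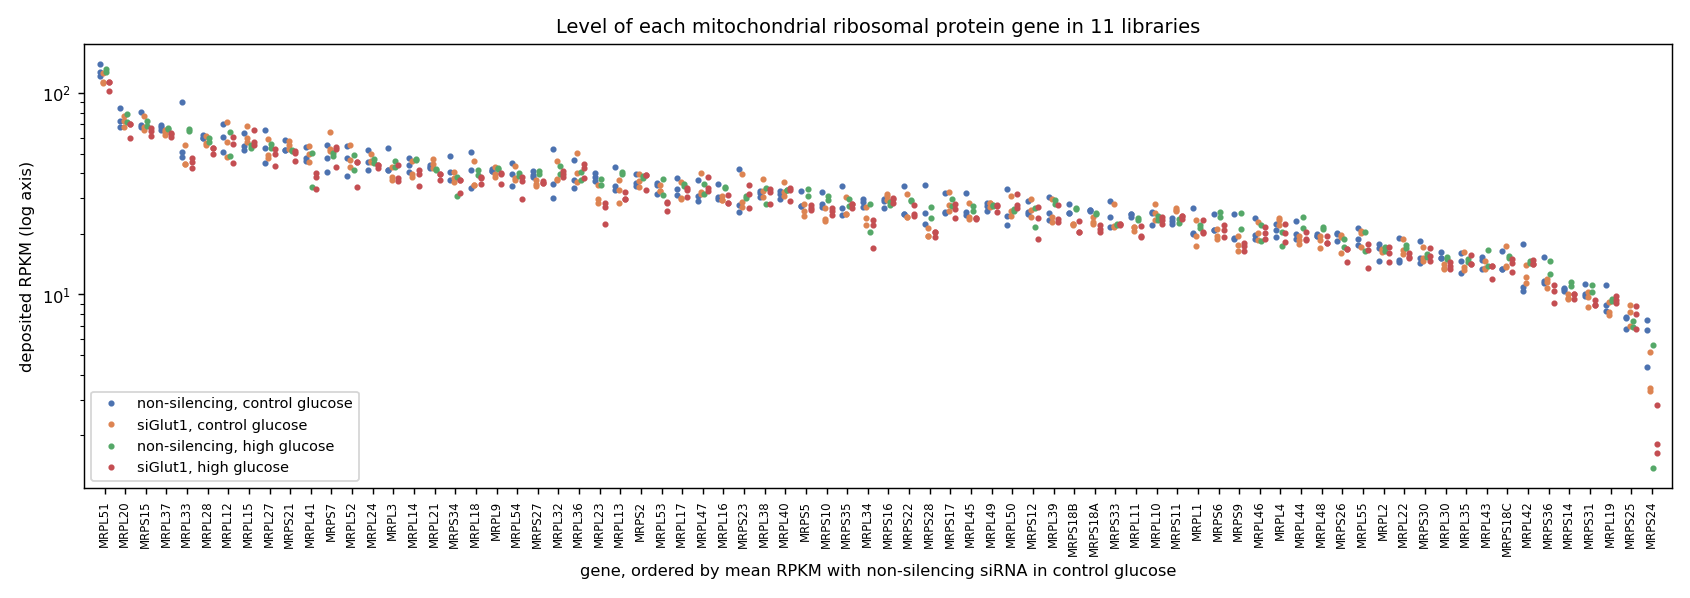
Deposited RPKM (log axis) of each of the 76 genes in the 11 libraries, with genes ordered by their mean in non-silencing cells in control glucose; each point is 1 library, coloured by group. MRPL51 is highest at 129 RPKM on average in that group and MRPS24 lowest at 6.16, and for most genes the 4 groups lie close together.

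Libraries of 1 group also differed in where these genes stood together. Each gene's log2 CPM was set against the mean of its 4 group means, and the median over the 76 genes was taken in each library. In control glucose the medians were -0.00014, -0.05 and 0.16 in non-silencing libraries 1, 2 and 3, and -0.061, -0.041 and 0.11 in siGlut1 libraries 1, 2 and 3. In high glucose they were 0.02 and 0.054 in non-silencing libraries 1 and 3, and -0.16, -0.011 and -0.035 in siGlut1 libraries 1, 2 and 3. Non-silencing control library 3 therefore stood highest, with 65 of 76 genes above their own mean, and siGlut1 high-glucose library 1 lowest, with 4 of 76. For other genes of like length the medians in these 2 libraries were 0.04 and -0.082. The pooled SD of the medians within groups was 0.084, which is larger than most of the shifts between groups given below. Single genes of the set varied less: the median within-group SD of log2 CPM was 0.12, against 0.17 for genes of like length. Those genes were matched on length and not on level, and the 76 genes stood high (median 28.6 RPKM, against 6.39 for all genes tested). The part of level in this difference was not tested.

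**Figure D2:**
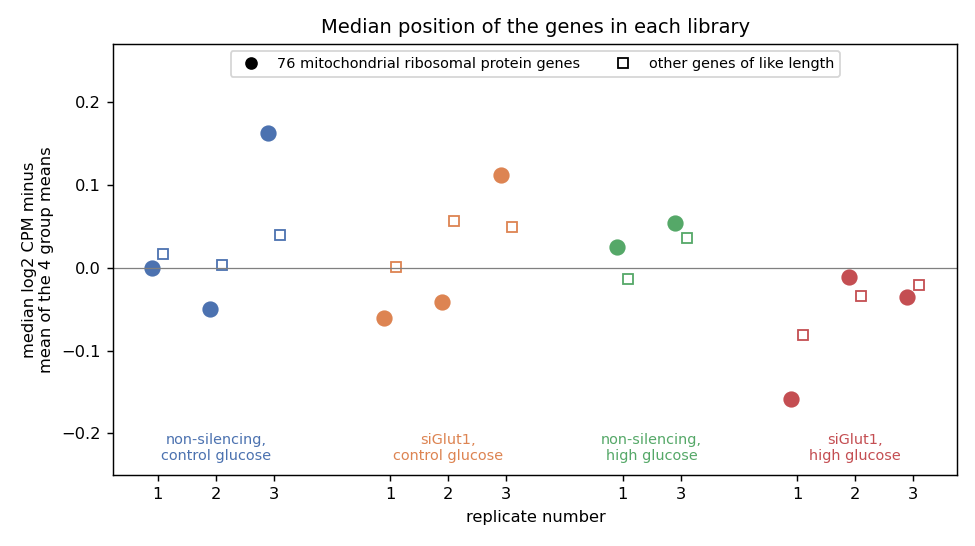
Median over genes of log2 CPM minus the mean of the 4 group means, by library (replicate number on the x axis, coloured by group); filled circles are the 76 mitochondrial ribosomal protein genes and open squares other genes of like length. Non-silencing control library 3 is highest at 0.16 and siGlut1 high-glucose library 1 lowest at -0.16.

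The first question was what siGlut1 does in each medium. In control glucose no gene of the set passed an adjusted p of 0.05 (percent called among all genes 2.96%, of which 1.26% lower and 1.70% higher), the smallest adjusted p being 0.0869. An unadjusted p under 0.05 was reached by 9 of 76, against 17.4% of all genes. DESeq2 called 2 lower and 1 higher, against 7.32% of all genes in either direction. The log2 fold changes ran from -0.60 (MRPS24) to 0.26 with a median of -0.04, against -0.0067 for all genes and 0.0032 for genes of like length, and 46 of 76 were below 0 (60.5%, against 51.4% of all genes). Leaving out non-silencing control library 3 turned this median to 0.02, and without non-silencing control library 2 it was -0.08. Without siGlut1 control library 3 it was -0.089, and without siGlut1 control library 1 it was -0.0075. In the fit without non-silencing control library 2, 1 gene passed as lower, against 2.18% of all genes in either direction. Every siGlut1 library lay below every non-silencing library for 11 genes (14.5%), against 9.60% of all genes, and above for 3, against 11%.

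In high glucose again no gene of the set passed (percent called among all genes 4.11%, of which 1.64% lower and 2.47% higher), with a smallest adjusted p of 0.0523. An unadjusted p under 0.05 was reached by 15 of 76, against 20.8% of all genes. DESeq2 called 3 of 76, all lower, against 9.21% of all genes in either direction. The fold changes were lower as a group than those of all genes: the median was -0.10, against -0.00048 for all genes and -0.056 for genes of like length, and 58 of 76 (76.3%) were below 0, against 50.1% and 59.5%. The siGlut1 and non-silencing libraries were fully separated with siGlut1 lower for 34 genes (44.7%), against 22% of all genes and 27.9% of genes of like length, and with siGlut1 higher for 5, against 22.6% of all genes. With 2 non-silencing libraries such a separation is easily met. In this comparison fold changes rose with coding length across all genes (Spearman's rho 0.24 over 14324 genes, which are not independent replicates). Set against other genes close to its own length, the median difference of the 76 genes was -0.012, with 42 of 76 below their neighbours. The count of genes past the threshold was 6, all lower, without non-silencing control library 3, where 7.57% of all genes passed. It was 1 without siGlut1 control library 2 or 3 (3.21% and 4.34% of all genes).

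Averaged over both media, which uses all 11 libraries, siGlut1 moved 8 of the 76 genes past the threshold (10.5%; percent called among all genes 14.4%, and 12.6% of genes of like length). MRPS18B, MRPL23, MRPL11, MRPS28, MRPS18A, MRPS9 and MRPS10 fell and MRPS11 rose. The share that fell was 9.21%, against 6.49% of all genes and 6.75% of genes of like length, and the share that rose was 1.32%, against 7.93% and 5.81%. The whole set had a median of -0.066 (all genes -0.0045, like length -0.029), 55 of 76 below 0 (72.4%, against 50.9% of all genes and 55.8% of genes of like length), and a range from -0.66 to 0.16. Against other genes close to its own length, the median difference of the 76 was -0.025, with 44 of 76 below their neighbours. The number that fell was sensitive to single libraries, as was the share of all genes called in either direction. It was 4 without siGlut1 high-glucose library 1 or 3 (12.2% and 9.69% of all genes called), and 2 without siGlut1 control library 1 (10.1%). Leaving out non-silencing high-glucose library 1 or 3 leaves 1 library in that group, and 54 and 47 of 76 genes were then below 0. The median was -0.029 without non-silencing control library 3.

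**Figure D3:**
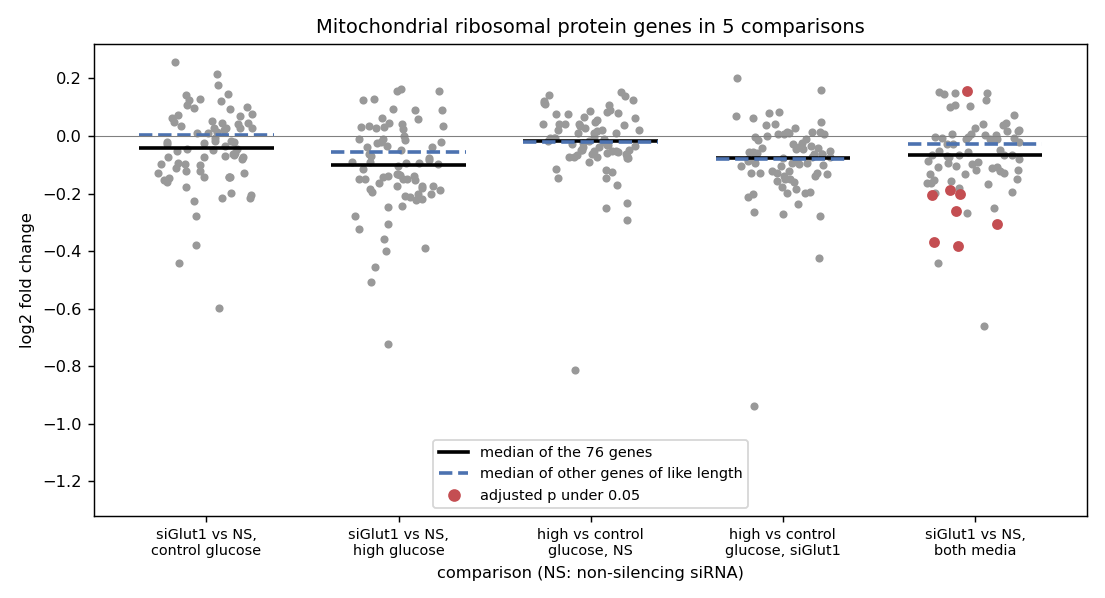
Log2 fold change of each of the 76 genes in 5 comparisons (NS: non-silencing siRNA), with the median of the set (solid line) and of other genes of like length (dashed line); red points have an adjusted p under 0.05. Only the average over both media has red points, 7 below 0 and 1 above, and the largest negative values belong to MRPS24.

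Among genes of the small subunit, MRPS18B encodes 1 of 3 related S18 proteins and gave the smallest adjusted p. It stood at 41.2, 41.7 and 44.4 CPM in the non-silencing and 37.2, 36.6 and 35.9 CPM in the siGlut1 libraries in control glucose, and at 42.7 and 43.3 CPM and then 33.4, 37.6 and 33.3 CPM in high glucose. All siGlut1 libraries were below all non-silencing libraries in each medium. MRPS18B (hg19 chromosome 6, 30585486 to 30594174) fell by 0.26 ± 0.0527 on the log2 scale (SE; adjusted p = 0.00818), a change of -16.5%, with -0.21 in control and -0.31 in high glucose. It passed in all 21 alternatives run. Its paralog MRPS18A (chromosome 6, 43638934 to 43655549), which sits in the large subunit despite its name, fell by 0.19 ± 0.0503 (SE; adjusted p = 0.0292). Its libraries were at 32.8, 33.6 and 32 CPM against 29.3, 30.7 and 28.1 CPM in control glucose, and at 31.3 and 31.1 CPM against 26.8, 25.9 and 27.8 CPM in high glucose, again without overlap. The MRPS18A call was the less stable, with 10 of 21 alternatives passing. It was lost without either non-silencing high-glucose library, siGlut1 high-glucose library 1 or 2, non-silencing control library 1 or 2, or siGlut1 control library 1 or 3, and also with no filter on low counts and with an offset for gene length (adjusted p = 0.0575 and 0.0923; log2 fold change -0.21 to -0.14 over all alternatives, adjusted p up to 0.112).

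MRPS9 and MRPS10 are proteins of the head of the small subunit. MRPS9 was at 29.1, 29.8 and 37.5 CPM against 25.9, 27.4 and 29.9 CPM with siGlut1 in control glucose, and at 38.6 and 32.4 CPM against 27.1, 28.1 and 25.6 CPM in high glucose. The groups overlapped in control glucose and were separate in high glucose. MRPS9 (chromosome 2, 105654483 to 105716418) fell by 0.31 ± 0.0823 (SE; adjusted p = 0.0294). MRPS10 was at 63.5, 62.3 and 71.2 CPM against 54.9, 52.9 and 60.8 CPM in control glucose, and at 65.3 and 68.7 CPM against 59.4, 61.3 and 56.5 CPM in high glucose, without overlap in either. MRPS10 (chromosome 6, 42174539 to 42185633) fell by 0.21 ± 0.0578 (SE; adjusted p = 0.0364). The MRPS9 call was lost without non-silencing high-glucose library 1, siGlut1 high-glucose library 1 or 3, or siGlut1 control library 1 or 2 (adjusted p up to 0.148), and the MRPS10 call without any 1 of the high-glucose libraries or without siGlut1 control library 1 or 2 (up to 0.138). With an offset for gene length both still passed (adjusted p = 0.0456 and 0.0402). Other head proteins include MRPS7 and MRPS24. MRPS7 was not moved past the threshold: it stood at 70.8, 61.7 and 80.5 CPM against 80.7, 77.8 and 96.1 CPM in control glucose and at 74.2 and 72.1 CPM against 64.6, 81.0 and 79.5 CPM in high glucose, with overlapping groups (log2 fold change 0.15, adjusted p = 0.301).

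MRPS28 and MRPS11 belong to the body and the platform of the small subunit. MRPS28 was at 18.9, 17.1 and 25.4 CPM against 14.8, 14.6 and 16.0 CPM with siGlut1 in control glucose, and at 20 and 17.7 CPM against 14.5, 15.3 and 15.5 CPM in high glucose. The groups were separate in each medium, with non-silencing control library 3 far above the others. MRPS28 (chromosome 8, 80831095 to 80942506) fell by 0.38 ± 0.0972 (SE; adjusted p = 0.0236), a change of -23.2%, and the call was lost without either non-silencing high-glucose library or without siGlut1 control library 1 (adjusted p up to 0.105). It passed with the length offset (adjusted p = 0.0336). MRPS11 went the other way: it was at 36.6, 35.9 and 37.0 CPM against 43.7, 42.4 and 41.3 CPM in control glucose, and at 35.3 and 37.4 CPM against 37.9, 39.0 and 39.3 CPM in high glucose. All siGlut1 libraries were higher in each medium. MRPS11 (chromosome 15, 89010684 to 89021861) rose by 0.16 ± 0.0465 (SE; adjusted p = 0.0464), close to the threshold, and the call was lost whenever any library but non-silencing control library 3 was left out (0.14 to 0.18; adjusted p up to 0.166) and with no filter on low counts. Its promoter partner MRPL46 had a log2 fold change of 0.021 (adjusted p = 0.895).

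Of the large subunit, MRPL11 is a protein of the stalk base, where translation factors bind, and MRPL23 lies at the exit of the peptide tunnel. MRPL11 was at 44.6, 43.6 and 43.7 CPM against 37.5, 38.8 and 38.6 CPM with siGlut1 in control glucose, and at 42.1 and 41.5 CPM against 34.6, 39.1 and 35.2 CPM in high glucose. MRPL23 was at 31.5, 29.1 and 29.3 CPM against 23.9, 27.7 and 22.4 CPM in control glucose, and at 29.0 and 27.3 CPM against 17.6, 21.4 and 22.4 CPM in high glucose. For both genes the siGlut1 libraries were below all non-silencing libraries in each medium. MRPL11 (chromosome 11, 66202550 to 66206310) fell by 0.20 ± 0.05 (SE; adjusted p = 0.0219), and its call was lost without either non-silencing high-glucose library, siGlut1 high-glucose library 3 or siGlut1 control library 1 (adjusted p up to 0.0931). MRPL23 (chromosome 11, 1968502 to 1977839) fell by 0.37 ± 0.0792 (SE; adjusted p = 0.0108), a change of -22.5%, and lost its call without non-silencing high-glucose library 1 (adjusted p = 0.0574). An antisense transcript, MRPL23-AS1, is annotated beside MRPL23, and the sources used here do not say whether counting used strand, so reads of overlapping genes cannot be told apart.

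**Figure D4:**
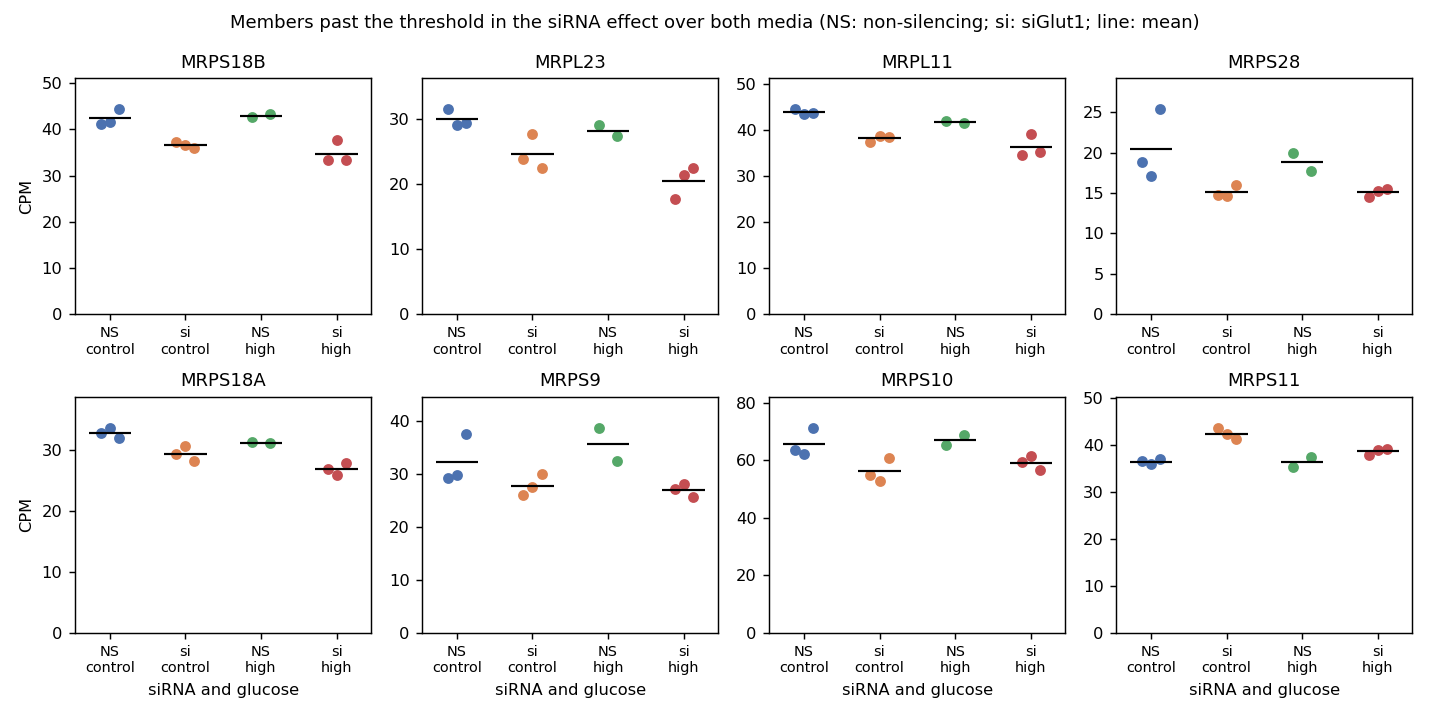
CPM (linear axis from 0) of the 8 genes past an adjusted p of 0.05 in the siRNA effect over both media; points are libraries and lines are group means (NS: non-silencing; si: siGlut1). The siGlut1 libraries lie below the non-silencing ones in both media for 6 genes, overlap in control glucose for MRPS9, and lie above them for MRPS11.

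Genes that missed the threshold give the range of the rest. MRPL3, a marker of the set, was at 77.6, 78.2 and 96.3 CPM against 73.1, 69.8 and 80.3 CPM in control glucose, and at 78.8 and 84.9 CPM against 68.8, 81.9 and 71.0 CPM in high glucose, with overlap in each (log2 fold change -0.16, adjusted p = 0.176). The lowest fold change was that of MRPS24 (chromosome 7, 43906157 to 43909145), -0.66 ± 0.315 (SE; adjusted p = 0.19). It stood at 5.49, 4.96 and 3.13 CPM against 2.57, 3.88 and 2.44 CPM in control glucose and at 1.0 and 4.11 CPM against 1.21, 2.10 and 1.35 CPM in high glucose, so the groups overlapped and the non-silencing libraries in high glucose stood far apart. Without non-silencing high-glucose library 1 the value was -0.996 and passed (adjusted p = 0.0317). MRPL33 (chromosome 2, 27994584 to 28002608) was next to it among genes that did not pass, at -0.44 ± 0.14 (SE; adjusted p = 0.0556). Its libraries were at 28, 26.7 and 48.2 CPM against 24.7, 24.7 and 30 CPM in control glucose, with non-silencing library 3 far above the rest, and at 35.7 and 35 CPM against 23.3, 26.2 and 25.1 CPM in high glucose, without overlap. MRPL33 passed without non-silencing control library 1, 2 or 3 or siGlut1 control library 3 (-0.52 to -0.28, adjusted p = 0.0397, 0.0238, 0.0193 and 0.0487). It also passed with DESeq2 (0.0145), with no filter on low counts (0.044) and with the filter at 1 CPM in 6 libraries (0.0478). The highest values after MRPS11 were MRPL4 at 0.15 (adjusted p = 0.167), MRPS25 at 0.15 (0.237) and MRPL15 at 0.15 (0.17). MRPS36, now known as a subunit of the 2-oxoglutarate dehydrogenase complex, was at -0.27 ± 0.0889 (SE; adjusted p = 0.0686). It passed with DESeq2 (0.0336) and with all 12 columns (0.0292), a fit that counts a mean as a replicate. MRPS30, a large-subunit protein despite its name, was at 0.017 (adjusted p = 0.907).

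The fold changes over both media were also summarised by subunit, origin and region. The median was -0.067 for MRPL and -0.065 for MRPS genes. It was -0.066 for the 46 genes classed as having bacterial relatives and -0.065 for the 29 classed as found only in mitochondria. These classes are approximate: MRPS18A and MRPS18B were placed among the 29, although they belong to the S18 family, which bacteria also have. By region, most proteins classed as found only in mitochondria were kept as classes of their own, so the other regions are not complete. The median was -0.21 for 5 genes of the small-subunit head, -0.11 for 4 of the peptidyl transferase region and -0.028 for 3 of the stalk. It was -0.013 for 7 genes of the tunnel exit, -0.0064 for 5 of the platform and -0.0046 for 6 of the body. The larger classes were in between. They stood at -0.059 for 18 large-subunit proteins classed as found only in mitochondria (with MRPS18A) and -0.077 for 10 such small-subunit proteins (with MRPS18B). For 17 other large-subunit proteins of bacterial type the median was -0.073. These regions were assigned with the values known, and differences between them were not tested. Promoter letters were set against fold changes for the 68 genes with a matched promoter, which leaves out MRPL23 and MRPS28. The 20 genes with the YY1 letters in their promoter had a median of -0.0082, and the 48 without them -0.076. For the ETS letters the order was the other way (-0.094 for 28 genes with them, -0.064 for 40 without), as for the NRF1 letters (-0.12 for 7 with them, -0.065 for 61 without), and none of these differences was tested.

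The second question was what high glucose does at a given siRNA. With non-silencing siRNA no gene of the set passed (percent called among all genes 0%), 1 of 76 had an unadjusted p under 0.05 (5.40% of all genes), and DESeq2 called 0 (0.23% of all genes). The median was -0.018 (all genes -0.015, like length -0.021), and it was 0.069 without non-silencing control library 3 and -0.046 without non-silencing control library 2. Values were below 0 for 44 of 76 (57.9%, against 54.0% of all genes), and the groups did not overlap for 7 genes with high glucose lower (9.23% of all genes) and for 3 with it higher (8.61%). MRPS24 had the lowest value, -0.82 ± 0.476 (SE; adjusted p = 0.924), and rests on the pair of non-silencing high-glucose libraries that stand apart. With siGlut1 no gene of the set passed either (percent called among all genes 0.0140%), 7 of 76 had an unadjusted p under 0.05 (15.2% of all genes), and DESeq2 called 0 (3.02% of all genes). The median was -0.075 and 59 of 76 were below 0 (77.6%, against 53.4% of all genes), but genes of like length had a median of -0.082 and 68.6% below 0. Against neighbours of their own length, 28 of 76 were lower. The fold changes in this comparison rose with coding length across all genes (Spearman's rho 0.38 over 14324 genes).

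The third question was whether the siRNA effect differs between media. No gene of the set had an interaction past the threshold (percent called among all genes 0%), 0 of 76 had an unadjusted p under 0.05 (2.75% of all genes), and DESeq2 called 0 (0% of all genes). The median interaction was -0.078, against -0.063 for genes of like length and 0.0034 for all genes, and 56 of 76 were below 0 (73.7%, against 49.2% of all genes and 66.2% of genes of like length). For each gene the siRNA effects in both media can be set side by side, although the comparisons across siRNA and across glucose share libraries: 41 genes were below 0 in both media, 13 were above 0 in both and 22 differed in sign. All siGlut1 libraries lay below all non-silencing libraries in both media for 10 genes (13.2%, against 6.21% of all genes and 5.74% of genes of like length). These were MRPL37, MRPS14, MRPL30 and MRPS27 beside 6 that passed the threshold (MRPS10, MRPS18A, MRPS18B, MRPS28, MRPL11 and MRPL23). The same held upwards for MRPS16 and MRPS11 (2 genes, against 7.47% of all genes).

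Other genes of the mitochondrial translation pathway were read in the same average over both media, where 14.4% of all genes passed. The lists below had 0 of 8, 2 of 14, 1 of 24 and 2 of 20 genes past the threshold, each near or below that share. The 8 other mitoribosome proteins, which carry other names, had no gene past the threshold, with OXA1L, the insertase of the inner membrane, at -0.15 (adjusted p = 0.0876, and 0.0413 at -0.17 without non-silencing control library 3) and DAP3 at 0.082 (0.239). Of 14 translation factors, GFM1 (elongation factor G) rose by 0.23 ± 0.0581 (SE; adjusted p = 0.0217) and MTFMT (which formylates the initiator tRNA) fell by 0.26 ± 0.0678 (SE; adjusted p = 0.0279). Of 24 assembly factors 1 passed, GTPBP5, which fell by 0.23 ± 0.063 (SE; adjusted p = 0.0335). Of 20 aminoacyl-tRNA synthetases and related enzymes, IARS2 fell by 0.30 ± 0.0547 (SE; adjusted p = 0.00506) and QRSL1 by 0.20 ± 0.0585 (SE; adjusted p = 0.0467). IARS2 passed in all 21 alternatives. The GFM1 call was lost without either non-silencing high-glucose library or siGlut1 high-glucose library 2 (adjusted p up to 0.0958), and the QRSL1 call without any 1 of the 11 libraries (up to 0.195) and with no filter on low counts. MTFMT lost its call without either non-silencing high-glucose library, siGlut1 high-glucose library 1 or 3, non-silencing control library 1 or siGlut1 control library 1 (up to 0.104), and with no filter on low counts. GTPBP5 lost its call without either non-silencing high-glucose library, siGlut1 high-glucose library 2 or 3, non-silencing control library 1 or siGlut1 control library 1 or 3 (up to 0.109), and with no filter on low counts.

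Genes of mitochondrial DNA and of mitochondrial biogenesis were read in the same way. Of 23 genes of mitochondrial DNA transcription and RNA handling, 2 rose and 0 fell, with 6 of 23 below 0 and a median of 0.071, against -0.0045 for all genes. These 2 of 23 compare with 7.93% of all genes called higher, so the count is near the background. They were C10orf2 (Twinkle, the helicase of mitochondrial DNA) by 0.33 ± 0.0861 (SE; adjusted p = 0.0278) and SUPV3L1 (an RNA helicase) by 0.28 ± 0.0777 (SE; adjusted p = 0.0333). Of 13 regulators of mitochondrial biogenesis, 3 rose (against the same 7.93% of all genes) and 0 fell, with 5 of 13 below 0 and a median of 0.039. PPRC1 (a coactivator of NRF1) rose by 0.29 ± 0.0585 (SE; adjusted p = 0.00851), PPARGC1B by 0.49 ± 0.135 (SE; adjusted p = 0.032) and MYC by 0.23 ± 0.0649 (SE; adjusted p = 0.0359). NRF1 was at 0.057 (adjusted p = 0.623) and YY1 at -0.045 (0.638). The GABP genes GABPA, GABPB1 and GABPB2 were at -0.24 (0.124), 0.028 (0.78) and -0.31 (0.213). PPARGC1A was also listed but did not pass the filter on low counts. PPRC1 also rose in high glucose alone, by 0.39 ± 0.0876 (SE; adjusted p = 0.0344). None of 18 mitochondrial proteases and chaperones passed, with HSPD1 at -0.044 (adjusted p = 0.846) and HSPA9 at 0.18 (0.25, and 0.0497 at 0.26 without non-silencing control library 3). PPRC1 lost its call without non-silencing high-glucose library 3 (adjusted p = 0.0517). The C10orf2 call was lost without either non-silencing high-glucose library, siGlut1 high-glucose library 2 or 3 or siGlut1 control library 3 (up to 0.0979), and the SUPV3L1 call without either non-silencing high-glucose library, siGlut1 high-glucose library 2, non-silencing control library 1 or 2 or siGlut1 control library 1 or 3 (up to 0.116). PPARGC1B lost its call without either non-silencing high-glucose library, siGlut1 high-glucose library 1 or 2, non-silencing control library 2 or siGlut1 control library 1 or 3 (up to 0.126), and MYC without either non-silencing high-glucose library, siGlut1 high-glucose library 2 or 3, non-silencing control library 1 or 2 or siGlut1 control library 2 or 3 (up to 0.133).

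Among the neighbours facing 17 of these genes across the promoter, MITD1, NCAPD2, CYB5RL and, facing MRPL46, MRPS11 passed the threshold over both media. In this comparison 14.4% of all genes passed. The rest of the neighbours did not pass, with log2 fold changes from -0.24 (PTCD2) to 0.16 (HIRA). MITD1, 126 bases from the start of MRPL30, fell by 0.31 (adjusted p = 0.0421), while MRPL30 was at -0.12 (adjusted p = 0.106). NCAPD2, 840 bases from MRPL51, fell by 0.35 (adjusted p = 0.0107), with MRPL51 at -0.17 (adjusted p = 0.0582), which passed without siGlut1 control library 3 (-0.19, adjusted p = 0.0446) and with DESeq2 (0.0225). CYB5RL, 137 bases from MRPL37, rose by 0.36 (adjusted p = 0.0442), with MRPL37 at -0.065 (adjusted p = 0.319). Whether the genes of these pairs differ from each other was not tested, and MITD1, NCAPD2 and CYB5RL were not run without single libraries.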

How the data were processed

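RNA-seq was deposited as 1 table of raw counts and RPKM per gene for 12 samples in 4 groups. The counts are the authors' own and the RPKM values were computed by the authors, with coding length and gene coordinates beside them, per the file headers. The submitters' processing notes name hg19 and DESeq2. The sources used here do not give the aligner, the counter or the treatment of reads that map to several places. The labels name 2 library kits, SMARTER and TruSeq stranded mRNA, for all samples alike. All counts in the 11 columns used are even numbers.

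Raw counts of 11 libraries were fitted with edgeR 4.0.16 (R 4.3.3, limma 3.58.1): TMM normalisation, filterByExpr (14324 of 23274 entries analysed), 1 quasi-likelihood model of 4 groups with 7 residual degrees of freedom, and Benjamini-Hochberg adjustment over all genes tested, with a threshold of 0.05. Log2 fold changes and CPM come from this fit, and the scripts were tested on simulated data. Comparisons were siGlut1 against non-silencing in each medium and averaged over both, high against control glucose with each siRNA, and the interaction. Groups were called not overlapping when all values of 1 group lay below those of the other. Genes named are SLC2A1, MRPL3 and MRPS7, all members past the threshold, the 5 lowest and 5 highest fold changes over both media, the 4 highest and 4 lowest levels, up to 4 called genes of each other list, and members named for the wrong subunit; genes without group overlap and promoter partners were named after their values were seen. The members and lists were chosen with earlier results of these data known. Alternatives were a replicate block, DESeq2 1.42.0, its size factors, other filters (none, or 1 CPM in 6 libraries), fits of only the groups compared, all 12 columns, an offset for gene length, and leaving out libraries. Halving the counts was chosen after seeing the data. Genes on chromosome Y and XIST were left out.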

Additional observations from a re-analysis of the deposited data

How the results depend on the processing

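No fold change of a gene named for its call reversed under the alternatives. Genes that fell over both media numbered 7, and 14 with DESeq2, 12 with the filter at 1 CPM in 6 libraries and 16 with all 12 columns. They numbered 3 with the length offset and replicate block, 12 without both control-glucose libraries numbered 3, and 12 with counts halved. With 1 library of a group of 3 left out they numbered 2 to 9. The share of all genes called in either direction moved as well. It was 14.4% in the main fit, 19.3% with DESeq2, 17.1% with the 1 CPM filter and 22.6% with all 12 columns. In the next 3 settings it was 15.3%, 17.8% and 15.5%, and with 1 library of a group of 3 left out 9.65% to 17.5%. Genes that rose numbered 1, and 0 with the replicate block (15.3% of all genes called in either direction) and 0 with no filter on low counts (10.4%). They numbered 0 to 1 with 1 library of a group of 3 left out. In high glucose, 0 fell (4.11% of all genes called in either direction), and 3 with DESeq2 (9.21%), 2 with the 1 CPM filter (5.17%) and 5 with only the groups compared (8.28%). It was 7 with all 12 columns (12.8%), 7 without both control-glucose libraries numbered 3 (11.8%) and 1 with counts halved (4.47%). With 1 library of a group of 3 left out, 0 to 6 fell (0.912% to 7.57%). In control glucose, DESeq2 called 2 lower and 1 higher (7.32% of all genes called) and all 12 columns 1 higher (5.85%). Leaving out 1 library of a group of 3 gave 0 to 1 lower (0.946% to 2.4% of all genes called). For high glucose with siGlut1, 1 rose without both control-glucose libraries numbered 3, where 5.16% of all genes passed. The cause was not tested. The 12-column fit counts a mean as a replicate.

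The length offset turned the median of high against control glucose with siGlut1 from -0.075 to 0.033, and to 0.034 with the replicate block as well; the interaction median went from -0.078 to 0.018 and 0.024. Over both media the median was -0.027 with the offset and -0.018 with both. With 1 library left out, medians ran from -0.089 to 0.02 (siGlut1 in control glucose), -0.14 to -0.061 (siGlut1 in high glucose), -0.046 to 0.069 (glucose, non-silencing), -0.12 to -0.02 (glucose, siGlut1), -0.13 to -0.041 (interaction) and -0.097 to -0.029 (both media).

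Replicate numbers are shared by the groups, but the labels do not pair samples. Correlations of deviations were over 0.1 in 9 of 15 same-numbered pairs and ran from -0.25 to 0.54, highest between both control-glucose libraries numbered 3. As not every pair passed 0.1, the numbers were not treated as pairs, although some libraries of 1 number did deviate together. The same-numbered library correlated best in 19 of 30 combinations of a library and another group. With the replicate block, 9 genes fell and 0 rose over both media (15.3% of all genes called), and 0 passed in the other comparisons (up to 4.19%). The block ended the calls of MRPS11 and QRSL1 (adjusted p = 0.0761 and 0.0784). Genes that it added included MRPL33 (-0.40, adjusted p = 0.045). With the length offset as well, MRPS28, MRPS18A, MRPS9, MRPS10 and QRSL1 did not pass (adjusted p = 0.0513, 0.112, 0.0719, 0.0642 and 0.0622), and with the offset alone MRPS18A did not (0.0923). Where a non-silencing high-glucose library was left out, the lone sample is assumed to vary like the other groups. MRPS24, at 48 to 304 counts, had the lowest counts of the set, and the part of depth in its spread was not tested.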
